A study of Homo sapiens with 2 samples.

Results

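The 39 genes described here encode the machinery of DNA replication and S phase: the MCM2 to MCM7 helicase, the factors that load and activate it, the polymerases, the sliding clamp and its loader, enzymes of Okazaki fragment joining and deoxynucleotide supply, E2F factors and chromatin assembly subunits. They were chosen as a list of gene symbols, and all 39 were matched to identifiers among the 57820 genes counted. Levels were read in 2 libraries of T47D, an established human luminal breast cancer line. The cells carried ESR1 Y537S, a ligand-binding domain mutation that keeps estrogen receptor alpha active without hormone, and received a control siRNA at 25 nM after seeding without hormones. Both libraries belong to this 1 group, so every value below is a level of the mutant control state and no condition was compared with another. The labels do not say whether the line is a clone, how the mutation was introduced, or whether the 2 replicates were separate cultures; their spread may be technical.

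In each cell cycle, the origin recognition complex, CDC6 and CDT1 load the MCM2 to MCM7 hexamer onto DNA in G1, and geminin (GMNN) blocks CDT1 once S phase has begun. CDC45 and the GINS complex then join MCM2 to MCM7 and turn it into the active replicative helicase. Polymerase alpha with primase starts each strand, and polymerases delta and epsilon extend it on the PCNA clamp. Transcription of many of these genes is held down by RB family proteins and switched on by E2F factors when cyclin-dependent kinases inactivate RB. In estrogen receptor-positive breast cancer cells, estrogen signalling drives entry into S phase.

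Promoter sequences are shown first. E2F words were not searched to choose the genes, but many of these genes are known to be switched on by E2F factors. The share with such words is thus not independent of the choice of genes. The first word searched was TTCGCGC, which differs from the next, written TTGGCGC, and from the last, written TTCCCGC, within its central letters. All were read on both strands, overlaps included, in the window from 250 bases before to 50 bases after each annotated start site of the RefSeq promoter table (GRCh38.p14). Of the 39 genes 35 had an entry; MCM4, MCM5, GINS4 and RPA2 did not. At least 1 word was found in 30 of these 35 genes, against 13.1% of the 27305 genes in the table, 22.1% of the 9583 detected protein-coding genes with an entry, and 46.0% of 50 other genes of the pathway. Sites of 30 bases are printed for the 4 members with a word that had the highest levels (PCNA, TK1, MCM3 and GINS2). Those of E2F1, MCM6, CDT1 and ORC1 were chosen after the sequences had been seen, to show a site of an E2F gene itself and paired or overlapping words. Each is 5′ to 3′ on the gene's own strand, and capitals mark the word. The number after the name is the position of the word's first base, where -1 is the last base before the start.
PCNA, -59: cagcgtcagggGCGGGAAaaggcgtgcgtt
TK1, -12: aagcggtcggcGCGGGAAccaggggcttac
MCM3, -173: ggatggtacgtTTCCCGCcaccgcggggcg
MCM3, -23: aacctttggtgGCGGGAAgagttcggaagt
MCM3, -3: gttcggaagttTTCGCGCcggggtggagtc
GINS2, -31: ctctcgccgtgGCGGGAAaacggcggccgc
E2F1, -19: gcaaaaaggatTTGGCGCgtaaaagtggcc
MCM6, -151: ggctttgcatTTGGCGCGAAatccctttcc
MCM6, -89: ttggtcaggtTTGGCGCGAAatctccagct
CDT1, -35: cgcccGCGGGAAatttgGCGGGAAccgcgc
ORC1, -22: gccacgccgaTTGGCGCGAAgttttctttt

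The printed sites lie at chr20:5126663-5126692 for PCNA, chr17:78187046-78187075 for TK1, chr16:85688967-85688996 for GINS2 and chr20:33686386-33686415 for E2F1, all on the minus strand of GRCh38.p14. The 3 MCM3 sites lie at chr6:52284897-52284926, chr6:52284747-52284776 and chr6:52284727-52284756, and the MCM6 pair at chr2:135876575-135876604 and chr2:135876513-135876542, again on the minus strand. The CDT1 site is chr16:88803749-88803778 on the plus strand, and the ORC1 site is chr1:52404426-52404455 on the minus strand. In MCM6 and ORC1 a word on each strand overlaps to form the same 10-letter run, and MCM6 holds that run at 2 places. CDT1 holds the same word 2 times within 30 bases.

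Words were present across the roles. All 4 MCM helicase genes with an entry held 1, as did all 5 clamp and loader genes, all 4 genes of deoxynucleotide supply, both E2F genes and both chromatin assembly genes. The count was 5 of 6 among polymerases and primase, 4 of 5 in origin licensing, 3 of 5 in helicase activation and 1 of 2 in single-strand binding and Okazaki fragment joining. ORC6, CDC45, MCM10, POLD1 and FEN1 held none of these letters in the windows searched. TTCCCGC was found in 17 of the 35 genes (7.82% of all genes of the table), TTGGCGC in 13 (3.66%) and TTCGCGC in 8 (2.75%). With 1 more T before each word, 20 of 35 genes still held a match. The share was 28% of 50 other genes of the pathway, 3.30% of all genes and 5.68% of detected protein-coding genes.

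Many of the words lay near the start sites. Among the members with a single start site in the table, 25 of 40 words (62.5%) began between -60 and 10, against 25.6% of 2727 words over all genes with a single start; this interval was chosen after the positions had been seen. Base composition was close to that of other active genes, with a median GC content of 65.0% in the members' windows and 65.3% in those of detected protein-coding genes. The CCAAT box, read as CCAAT on both strands, was in 21 of 35 member promoters (60%). It was in 27 of 50 promoters of other genes of the pathway (54%) and in 43.6% of those of detected protein-coding genes. TTTGAA, the letters of the cell cycle homology element known from late cell cycle genes, was in 1 member, RRM1, and in 13.5% of detected protein-coding genes. These 2 further motifs were added after the E2F result had been seen. Matches are descriptions of sequence, not of binding.

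**Figure D1:**
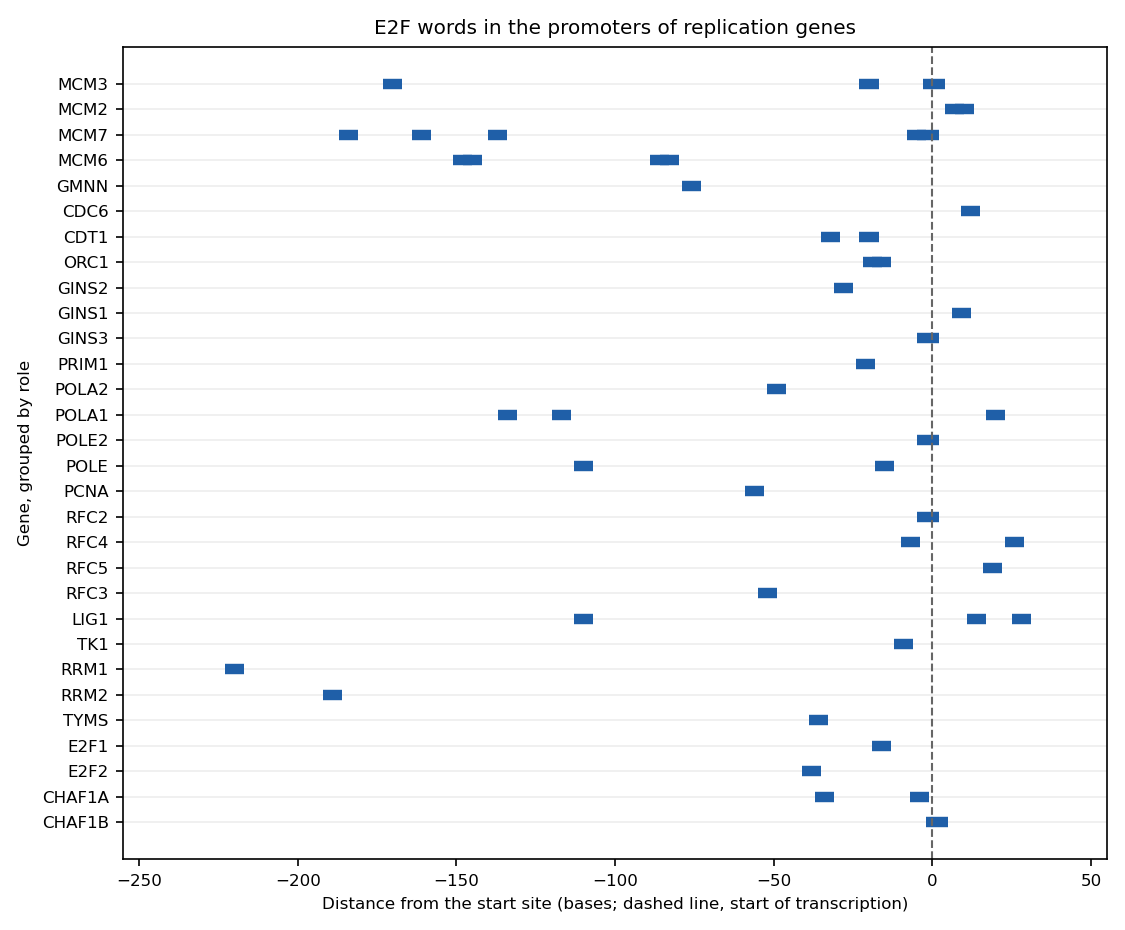
Position of each E2F word (bars, 7 bases long) relative to the annotated start site (dashed line) for the 30 genes with a word; the horizontal axis is distance in bases, and rows are genes grouped by role. Of the 40 words of genes with a single start, 25 begin between -60 and 10, an interval chosen after the positions had been seen. The words of RRM1 and RRM2 lie farthest upstream.

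Depth and identity of the libraries set the frame for the levels. Replicate 1 held 41370662 reads on genes and replicate 2 held 37198274. The 7 luminal epithelial markers checked were all present, from ESR1 with 23.5 ± 3.18 TPM (SD, n = 2) to KRT19 with 1385 ± 19.6. Of 13 basal, mesenchymal, immune and endothelial markers only COL1A1 reached 1 CPM, a count scaled to library size alone, in both libraries, with 1.11 ± 0.0783 TPM, and DCN, CD3E and CDH5 had no reads. TPM is the number of reads per summed exon base, scaled to the sum of that quantity over all genes of the library. It is the scale of all levels below unless CPM or another length is named. A shift of that sum between libraries moves TPM even where CPM is nearly level. MCM2 had 242 CPM in replicate 1 and 238 in replicate 2, but 77.0 and 68.2 TPM. Errors are SD over the 2 libraries, and intervals are exact Poisson 95% intervals of counting error alone.

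Each of the 39 replication genes reached 1 CPM in replicate 1 and in replicate 2, where 24.5% of all genes and 60.9% of protein-coding genes were. Their lowest count was the 438 reads of TYMS in replicate 1, and their highest the 16838 reads of MCM4 in the same library. Together they held 179500 reads in replicate 1 (0.434% of the library) and 153059 in replicate 2 (0.411%). The median level of the 39 genes was 29.6 TPM in replicate 1 and 25.2 in replicate 2 (mean 27.4 ± 3.10). The median of the 11718 detected nuclear protein-coding genes was 9.25 ± 0.907 TPM, and 32 members lay above that median in both libraries, while TYMS, E2F2 and GINS3 lay below it in both. Levels spanned 50.3-fold from GINS3 to PCNA in replicate 1 and 49.9-fold in replicate 2. On average 12 members stood at 50 TPM or more, 12 between 20 and 50, 8 between 10 and 20, and 7 below 10.

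**Figure D2:**
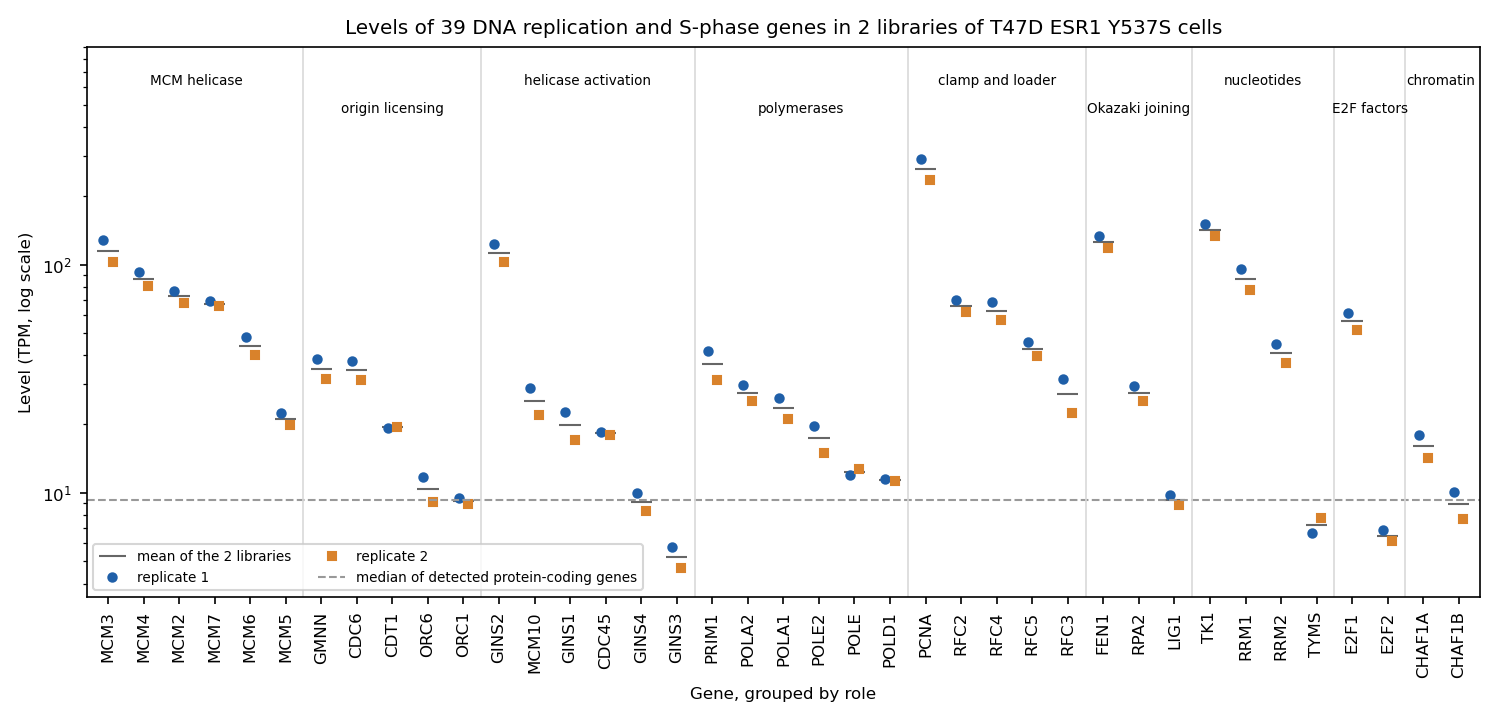
Level in TPM (log axis) of each of the 39 genes in replicate 1 (circles) and replicate 2 (squares), with the mean as a short line, grouped by role. The dashed line is the median of detected protein-coding genes, 9.25 TPM; PCNA is highest and GINS3, E2F2 and TYMS lie below the line in both libraries.

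The helicase subunits MCM2 to MCM7, which form a ring with each subunit present once, had unequal transcript levels. MCM3 (ENSG00000112118.13, chromosome 6, 52128807 to 52149679, hg19) had 128 TPM in replicate 1 (interval 125 to 130) and 102 in replicate 2 (100.2 to 104). MCM4 (chromosome 8) had 93.1 and 80.8, and MCM2 (ENSG00000073111.9, chromosome 3, 127317066 to 127341276) had 77.0 and 68.2. These 3 were higher than MCM6 and MCM5 in both libraries, without overlap. MCM7 (ENSG00000166508.13, chromosome 7, 99690351 to 99699563) followed with 69.1 and 65.7 TPM and MCM6 (ENSG00000076003.4, chromosome 2, 136597196 to 136633996) with 48.0 and 40.3. MCM5 (ENSG00000100297.11, chromosome 22, 35796056 to 35821423) was lowest with 22.5 (21.8 to 23.2) and 19.8 (19.2 to 20.4). MCM3 thus stood 5.68-fold above MCM5 in replicate 1 and 5.16-fold in replicate 2.

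A ratio between 2 genes was taken to exceed the replicate spread where its exact conditional binomial 95% interval excluded equality the same way in both libraries. In addition, the mean log2 ratio had to exceed the 95th percentile of absolute replicate differences among genes as abundant as the lower partner. By that rule MCM3 exceeded MCM4 (log2 ratio 0.40 ± 0.082), MCM7 exceeded MCM6 (0.62 ± 0.13) and MCM6 exceeded MCM5 (1.06 ± 0.049). MCM4 and MCM2 (0.26 ± 0.020) and MCM2 and MCM7 (0.11 ± 0.075) did not differ beyond it. MCM2 was 3.43-fold above MCM5 (log2 ratio 1.78 ± 0.0041) and 2.24-fold per principal transcript, and MCM4 was 1.97-fold above MCM6 (0.98 ± 0.033).

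This order rests in part on annotated length. MCM5 has 7338 summed exon bases but a principal transcript of 3534 bases in GENCODE 29, and MCM4 has 6824 against 4183. Per principal transcript, a scale added after seeing the data, MCM5 had 58.6 ± 2.15 TPM and MCM6 had 64.9 ± 4.57, and their log2 ratio of 0.15 was no longer called. MCM4 then led with 189 ± 9.03, ahead of MCM3 with 174 ± 18.1, MCM7 with 134 ± 2.38 and MCM2 with 131 ± 4.44. The ratio of the highest to the lowest subunit narrowed to 3.23 ± 0.0355. TPM on this scale is divided by another sum, so ratios, not levels, can be set beside those per summed exon length. MCM5 remained lowest on each of the 4 scales used: TPM by summed exons, by exon bases no other gene covers, by principal transcript, and CPM. In CPM it had 105 ± 1.45 and MCM4 had 400 ± 9.92.

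**Figure D3:**
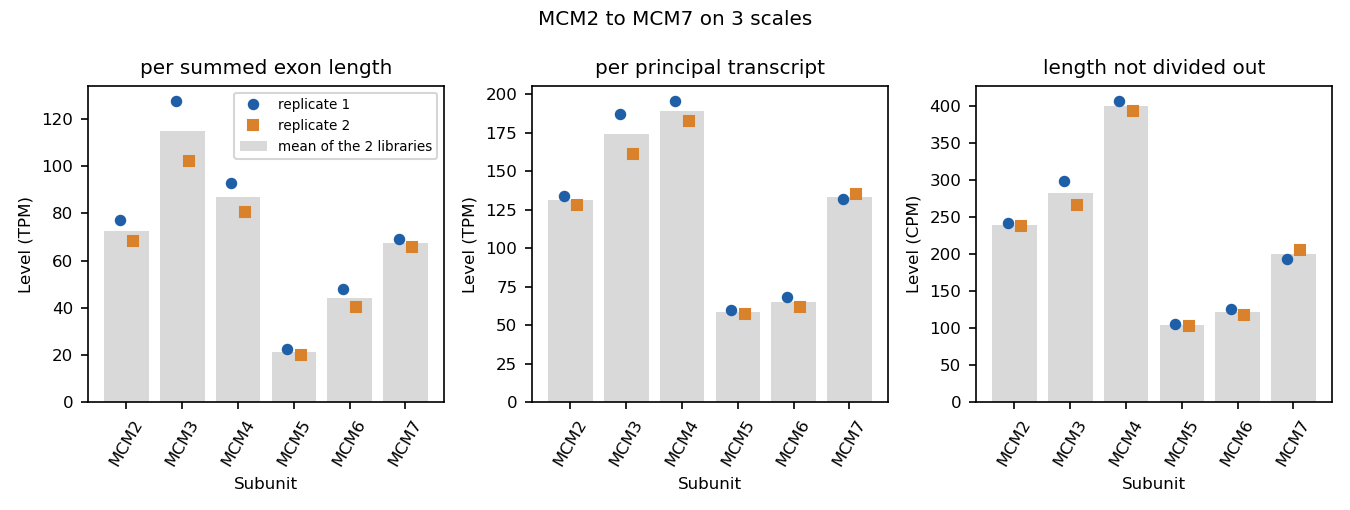
Levels of MCM2 to MCM7 as TPM per summed exon length (left), TPM per principal transcript length (middle) and CPM (right); bars are means of the 2 libraries, circles replicate 1 and squares replicate 2. MCM5 is lowest in each panel, while the highest subunit is MCM3 on the left and MCM4 in the middle and right panels.

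Among the origin licensing genes, GMNN and CDC6 had the highest levels per summed exon length. GMNN (ENSG00000112312.5), the inhibitor of CDT1, had 38.6 TPM in replicate 1 and 31.5 in replicate 2. CDC6 (ENSG00000094804.5), the ATPase that brings MCM complexes to origins, had 37.8 and 31.4. These levels did not differ beyond the spread between replicates (log2 ratio 0.018 ± 0.016). The loading factor CDT1 (ENSG00000167513.4) had 19.3 and 19.4 TPM, and GMNN exceeded it in both libraries (log2 ratio of CDT1 to GMNN -0.85 ± 0.21). The origin recognition subunits ORC6, with 11.7 and 9.13 TPM, and ORC1, with 9.53 and 8.94, were lowest and did not differ beyond the replicate spread (log2 ratio 0.16 ± 0.19).

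Lengths mattered for this group as well. Per principal transcript GMNN had 91.6 ± 8.32 TPM, 2.83-fold above CDC6. The principal transcript of CDC6, with 4810 bases, is longer than its 3382 counted exon bases. The bases outside those counted could give no reads, so CDC6 is understated on that scale. Its ratios to GMNN, ORC6 and CDT1 there rest in part on this mismatch. ORC6 on that scale had 36.7 ± 4.48 TPM, above both CDC6 with 32.4 ± 2.58 and CDT1 with 26.7 ± 1.52, so the order of CDT1 and ORC6 turned (log2 ratio of CDT1 to ORC6 0.91 per summed exon length and -0.46 per principal transcript). CDC6 over CDT1, at 0.83 ± 0.20 per summed exon length, was 0.28 per principal transcript and no longer called. GMNN over CDT1 was called on both scales, and the log2 ratio of CDT1 to GMNN was -1.78 per principal transcript.

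Of the helicase activation genes, GINS2 stood far above its partners. The GINS complex holds GINS1, GINS2, GINS3 and GINS4 in equal number, and binds CDC45 and the MCM ring. GINS2 (ENSG00000131153.4, chromosome 16, 85709804 to 85723679) had 123 TPM in replicate 1 (121 to 125) and 103 in replicate 2 (101 to 105). GINS1 (ENSG00000101003.8) had 22.6 and 17.05, GINS4 had 9.95 and 8.31, and GINS3 (ENSG00000181938.9, chromosome 16, 58328984 to 58440048) had 5.77 (5.38 to 6.19) and 4.69 (4.33 to 5.07). GINS2 was 21.6-fold above GINS3 (log2 ratio 4.43 ± 0.029), and 11.8-fold per principal transcript. The gap between GINS2 and MCM10, the next in order, was 4.48-fold (2.16 ± 0.093) and remained called in CPM and per principal transcript.

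MCM10, a scaffold that helps fire the assembled helicase, had 28.8 and 22.0 TPM. CDC45 (ENSG00000093009.5) had 18.5 and 17.9, below MCM10 in both libraries (log2 ratio of CDC45 to MCM10 -0.46 ± 0.24); from replicate 2 alone, at -0.29, this pair was not called. GINS1 and CDC45 did not differ beyond the replicate spread (0.11 ± 0.26), and their order differed between the libraries. GINS4 has 23.6% of its exon bases covered by 2 genes on the opposite strand. Reads there are not counted for either gene by default, so its level is uncertain; over the bases not shared the call that put it below CDC45 held (log2 ratio 0.62).

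The polymerase and primase genes ran from PRIM1 down to POLD1. PRIM1 (ENSG00000198056.9), the catalytic primase subunit, had 42.0 TPM in replicate 1 and 31.3 in replicate 2. POLA2 and POLA1, the accessory and catalytic subunits of polymerase alpha, had 29.6 and 25.3 and 26.1 and 21.1 TPM. POLA1 and POLA2 did not differ beyond the replicate spread (log2 ratio of POLA2 to POLA1 0.22 ± 0.060), whereas PRIM1 exceeded POLA1 (log2 ratio of POLA1 to PRIM1 -0.63 ± 0.081, and -1.23 per principal transcript). The call of PRIM1 above POLA2 (0.41 ± 0.14) was lost from replicate 2 alone, at 0.31.

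POLE2, an accessory subunit of polymerase epsilon, had 19.7 and 15.0 TPM. The leading-strand catalytic subunit POLE had 12.0 and 12.7, and the lagging-strand catalytic subunit POLD1 had 11.5 and 11.2. POLE and POLD1 did not differ beyond the replicate spread in TPM (log2 ratio 0.12 ± 0.084). POLE has 16605 summed exon bases and a principal transcript of 7840; per principal transcript it had 35.0 ± 3.36 TPM, 1.63-fold above POLD1 with 21.4 ± 0.817, and that difference was called. The gap between POLE2 and POLE was 0.72 on the log2 scale in replicate 1 and 0.23 in replicate 2, and it was not called from replicate 2 alone or per principal transcript. POLD1 shares 8.77% of its exon bases with another gene.

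PCNA, the sliding clamp, was the highest member, and the RFC subunits that load it lay below. PCNA (ENSG00000132646.6, chromosome 20, 5095599 to 5107272) had 291 TPM in replicate 1 (285 to 296) and 234 in replicate 2 (229 to 239). RFC2 had 70.3 and 61.7, RFC4 had 68.4 and 57.1, RFC5 had 46.0 and 39.7, and RFC3 had 31.6 and 22.4. PCNA was 3.96-fold above RFC2 (log2 ratio 1.98 ± 0.088) and 4.17-fold above RFC4 (2.06 ± 0.037). Per principal transcript PCNA had 378 ± 38.0 TPM and was 3.30-fold above RFC2 but only 2.18-fold above RFC4, and both pairs were called. RFC2 and RFC4 were not separated in TPM (0.076 ± 0.051), but per principal transcript RFC4 was higher, with 173 ± 13.0 against 114 ± 4.55. RFC5 exceeded RFC3 on both length scales, 1.61-fold per summed exon length and 2.64-fold per principal transcript. As background, PCNA acts as a trimer and the clamp loader holds 1 copy of each RFC subunit.

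FEN1 and LIG1, which trim and seal Okazaki fragments, differed widely. FEN1 (ENSG00000168496.3, chromosome 11, 61560109 to 61564716) had 134 TPM in replicate 1 and 119 in replicate 2, and LIG1 (ENSG00000105486.9, chromosome 19, 48618702 to 48673860) had 9.76 and 8.83. The ratio was 13.6-fold (log2 3.76 ± 0.022) and 7.55-fold per principal transcript. RPA2, a subunit of the protein that coats single-stranded DNA, lay between them with 29.4 and 25.2 TPM.

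Among the deoxynucleotide enzymes the thymidine kinase TK1 was highest and the thymidylate synthase TYMS lowest. TK1 (ENSG00000167900.7) had 151 TPM in replicate 1 and 134 in replicate 2. RRM1, the large subunit of ribonucleotide reductase, had 95.3 and 77.7, and its S-phase partner RRM2 had 44.9 and 37.0. RRM1 exceeded RRM2 2.11-fold (log2 ratio 1.08 ± 0.0096), and 1.99-fold per principal transcript. TYMS (ENSG00000176890.11, chromosome 18, 657604 to 673578) had 6.69 TPM (6.08 to 7.35) and 7.79 (7.13 to 8.49), from 438 and 510 reads.

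TYMS is the member whose count is least certain. Of its 2470 exon bases 26.2% lie under exons of other genes, 465 under ENOSF1 and 183 under TYMSOS, both on the opposite strand. ENOSF1 was counted with 1642 and 1448 reads. Over the bases not shared, the log2 ratio of TK1 to TYMS was 3.86, against 4.30 over all exon bases. TYMS stayed the lowest of the 4 deoxynucleotide enzymes on each of the 4 scales. How many TYMS reads were discarded as shared was not tested.

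The E2F activators were unequal. E2F1 (ENSG00000101412.9, chromosome 20, 32263489 to 32274210) had 61.6 TPM in replicate 1 (59.8 to 63.6) and 51.7 in replicate 2 (49.95 to 53.4). E2F2 (ENSG00000007968.6, chromosome 1, 23832922 to 23857712) had 6.85 (6.43 to 7.29) and 6.14 (5.75 to 6.56). E2F1 was 8.70-fold above E2F2 (log2 ratio 3.12 ± 0.070) and 8.28-fold per principal transcript. Of the chromatin assembly subunits, which place histones behind the fork with PCNA, CHAF1A had 17.96 and 14.2 TPM and CHAF1B had 10.1 and 7.71. CHAF1A exceeded CHAF1B 1.81-fold (0.86 ± 0.038).

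In all, 39 pairs were compared, 30 of neighbours in the order within a role and 9 more, and 31 differed beyond the replicate spread. Pairs of other genes were not compared, so this count has no background. Neighbours were ordered by mean TPM in these same libraries, so the direction of their mean ratio followed from that order. Of the 8 that did not, MCM4/MCM2, GMNN/CDC6, ORC6/ORC1, POLA2/POLA1, POLE/POLD1 and RFC2/RFC4 were called per principal transcript. Of the 31 called pairs, MCM3/MCM4, MCM6/MCM5, CDC6/CDT1, GINS4/GINS3 (0.15), POLA1/POLE2 and POLE2/POLE lost the call on that scale, and CDT1/ORC6 was called in the opposite direction. MCM2/MCM7 and GINS1/CDC45 were called on neither length scale. The changes of GMNN/CDC6 and CDC6/CDT1 rest in part on the understated level of CDC6 per principal transcript. The replicate spread compares the same gene between libraries and holds no error between genes, so a called pair shows only that the ratio exceeds the difference between libraries.

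Between the libraries, 36 of 39 members had a lower TPM in replicate 2, as did 82.4% of detected protein-coding genes, so this shift was shared by most genes. It was a shift of the TPM scale: on counts scaled to library totals alone, the median log2 difference of all tested genes was -0.023. On counts scaled by trimmed mean of M values (TMM), 30 members were lower in replicate 2 and 9 higher, where 50.6% of 14668 tested genes were lower. The median log2 difference was -0.08 for the members and -0.0025 for all tested genes. Other genes of the pathway, with cell cycle arrest genes among them, lay mostly on the same side: 50 of 62 tested genes were lower, with a median of -0.10. The arrest genes did not share this, with 4 of 8 lower and a median of -0.0080.

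An exact two-sided binomial test with Benjamini-Hochberg adjustment, which sets the 2 libraries against counting error and compares no conditions, called 25 of 39 members, where it called 40.0% of all tested genes. Of these 19 were lower in replicate 2 and 6 higher, where 20.8% and 19.2% of all genes were. The called share of all tested genes was 20.8% between 1 and 3 CPM and 65.3% from 100 CPM. Of the 35 members at 30 CPM or more 24 were called, where 53.8% of all genes at that abundance were. RFC3 was the only member outside the 95th percentile that genes of its CPM class showed, with a log2 difference of -0.32 and a limit of 0.31, where 5.01% of all genes lay beyond theirs.

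The largest differences were those of TYMS (0.39, higher in replicate 2), RFC3 (-0.32) and POLE (0.26). RFC3 had 2403 reads in replicate 1 and 1707 in replicate 2, and POLE had 5264 and 5601. MCM2, FEN1, TK1 and MCM5 were nearly level between the libraries, with log2 differences of -0.0019, -0.0020, -0.0056 and -0.0077. The median absolute difference was 0.11 for the members and 0.14 for all tested genes. These medians were not matched for abundance: 35 of 39 members were at 30 CPM or more, against 6269 of 14668 tested genes. The 95th percentile of absolute differences was 0.97 between 1 and 3 CPM and 0.28 from 100 CPM. A cause of the members' lower median on TMM-scaled counts, such as a different share of cycling cells or different RNA quality, was not tested. In bulk RNA fewer cells in S phase and less RNA per cell cannot be told apart.

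**Figure D4:**
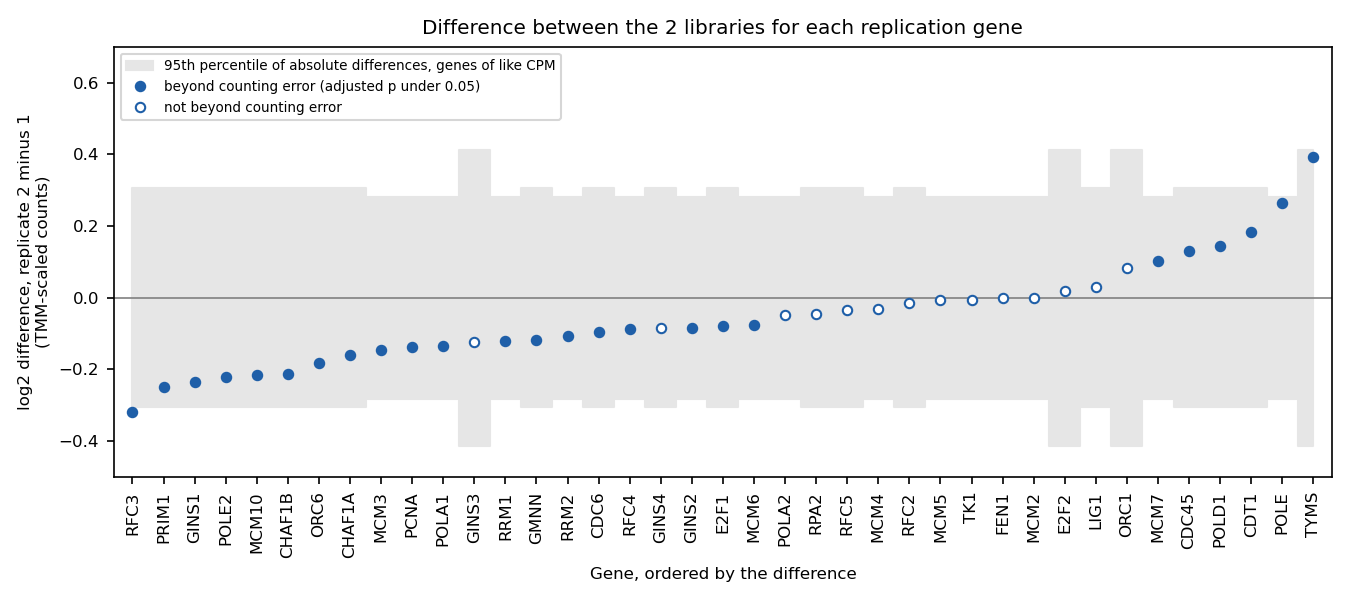
log2 difference between the libraries (replicate 2 minus replicate 1, TMM-scaled counts) for each of the 39 genes, ordered by size; filled points passed the exact binomial test against counting error and open points did not. The grey band is the 95th percentile of absolute differences among genes of like abundance, and RFC3 alone lies outside it.

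The other genes of the pathway, on a list of 63, were read in the same libraries, and 62 were detected. Other subunits of the same complexes had a median of 18.8 ± 3.74 TPM (17 of 17 detected). POLD2 (93.9 ± 2.69), POLE3 (82.4 ± 12.5) and RPA1 (61.2 ± 5.99), accessory or single-strand binding subunits, led them. ORC4 (4.38 ± 1.09), POLD4 (4.26 ± 0.567) and MCM9 (3.99 ± 0.377 TPM) were lowest. The accessory subunit POLD2 thus had a higher level per summed exon length than the catalytic POLD1 in both libraries, with 95.8 and 92.0 against 11.5 and 11.2 TPM.

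Firing and fork factors had a median of 22.7 ± 4.22 TPM (15 of 15 detected). The topoisomerase TOP2A led with 209 ± 40.8, followed by RNASEH2A, of the enzyme that removes RNA from DNA, with 65.3 ± 2.54 and the fork protection factor TIMELESS with 55.04 ± 4.74. CDC7 (8.69 ± 2.12), the kinase that triggers origin firing, TICRR (6.69 ± 1.00) and TIPIN (6.34 ± 0.235 TPM), the partner of TIMELESS, were lowest. Among other deoxynucleotide genes, with a median of 16.9 ± 3.21 TPM, DTYMK and DUT had 35.5 ± 3.83 and 17.97 ± 3.70, and RRM2B, DCK and the mitochondrial kinase TK2 had 15.9 ± 2.86, 7.96 ± 0.970 and 4.07 ± 0.244 TPM.

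The E2F partners and RB family genes lay lower, with a median of 10.5 ± 1.06 TPM (11 of 11 detected). The dimerization partner TFDP1 had 36.9 ± 7.33 TPM, the repressor E2F4 had 27.7 ± 2.52 and the pocket protein RBL2 had 18.9 ± 1.31. E2F6 (6.97 ± 1.28), E2F5 (6.64 ± 0.741) and E2F8 (6.11 ± 0.570) were lowest. None of the 7 other E2F genes measured, counting E2F2, reached E2F1 with its 56.7 ± 7.05 TPM.

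Of the S-phase cyclins and kinases, CCNA2 (73.6 ± 12.8), CDK2 (37.5 ± 4.06) and the activating phosphatase CDC25A (18.5 ± 2.92) stood above the E cyclins CCNE2 (14.1 ± 2.57) and CCNE1 (6.23 ± 0.356 TPM). Genes of cell cycle arrest had the lowest median of these lists, 6.34 ± 1.38 TPM, with 8 of 9 detected. The kinase inhibitors CDKN1B (20.1 ± 2.12), CDKN1A (18.5 ± 0.502) and CDKN2D (12.2 ± 0.0483) were their highest, and BTG2 (3.87 ± 0.282) and CDKN2A (3.86 ± 0.511) were low. CDKN1C, with 8 and 11 reads, was not detected. Between the libraries the arrest genes had a median log2 difference of -0.0080, and 4 of 8 tested were lower in replicate 2.

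**Figure D5:**
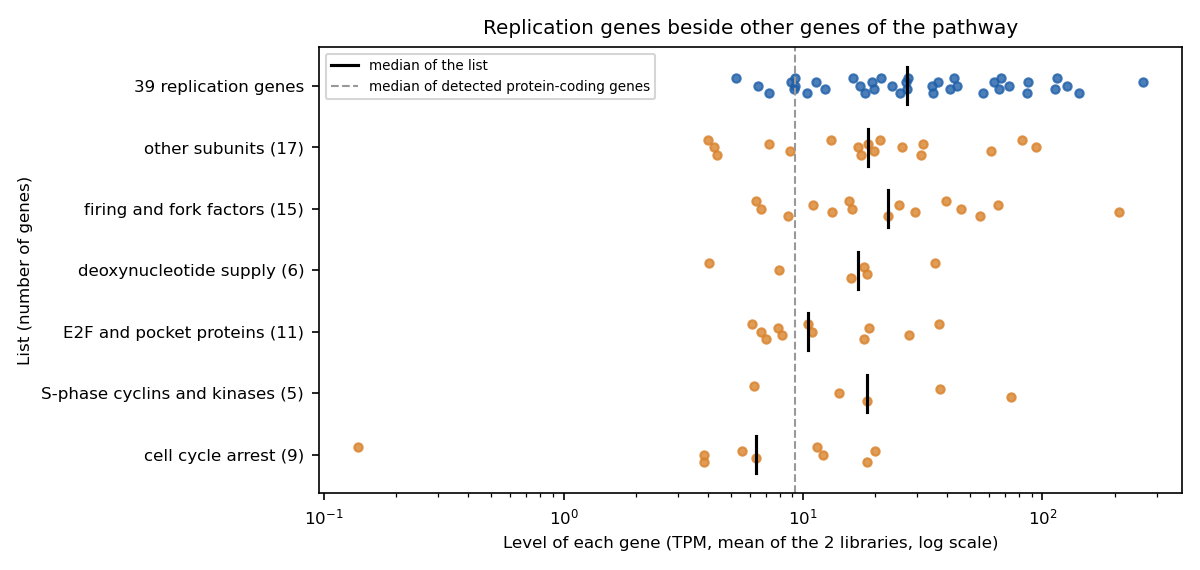
Level of each gene (points; TPM, mean of the 2 libraries, log axis) for the 39 replication genes and 6 lists of other genes of the pathway, with list medians as vertical bars. The dashed line is the median of detected protein-coding genes, 9.25 TPM; the arrest list has the lowest median, and its leftmost point is CDKN1C.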

How the data were processed

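Total RNA of 2 libraries of 1 group was sequenced after stranded, ribosomal RNA-depleted preparation, per the labels' protocols. Reads on GENCODE 19 exons were summed by gene by the authors using featureCounts 2.0.2, per the file headers; the deposited counts are whole numbers without normalization. The call set no strand, pairing, multimapping or overlap option. HISAT2 and hg19 are named in the submitters' processing notes. By default, reads on shared exon bases are not counted, and mates of a pair, if reads were paired, are counted singly, which would make intervals too narrow. Another 8 columns of per-sample values match no sample described here and were not used in any step; columns were matched to samples by line, receptor residue and replicate number. From a second deposited table, counted over Ensembl release 87, only identifiers and exon lengths were read; all 39 members had the same length there. Gene length, a column of the authors' tables, is summed exon length.

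CPM and TPM per summed exon length were computed over all 57820 genes. TPM on the other lengths was scaled to the sum over genes that had such a length. Levels per principal transcript are thus not directly comparable with those per summed exon length. ORC1, with 3157 bases on both scales, had 9.23 TPM per summed exon length and 12.3 per principal transcript. The reads divided by principal transcript length were those of all GENCODE 19 exons of the gene. Symbols came from a gene identifier table that named 51996 identifiers (89.9%); gene types and principal transcript lengths came from GENCODE 29. TMM factors came from edgeR 4.0.16, and alternative size factors from DESeq2 1.42.0. Genes at 1 CPM or more on average were tested with an exact binomial test at the share given by effective library sizes. They were called at an adjusted p under 0.05. The test was checked on counts simulated with planted changes and counting error alone. Variation between replicate libraries was not simulated. log2 differences used counts plus 0.5. CPM classes began at 1, 3, 10, 30 and 100. The common coefficient of variation was 9.61%. Members, lists and pairs were chosen with earlier results of these data known. All members are named; pairs, the 3 largest replicate differences, the 3 highest and lowest genes of each list and the first 4 promoters followed a written rule, except that 1 gene is not reported here. Alternatives were other scalings, lengths, filters, percentiles, words and single libraries.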

Additional observations from a re-analysis of the deposited data

How the results depend on the processing

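The median level of the 39 genes was 27.4 TPM. This median was 90.5 in CPM, 97.3 in TPM over nuclear protein-coding genes and 55.5 TPM per principal transcript. The sum that levels are scaled to differs among these scales, so these shifts are not effects of length alone. From single libraries the median TPM per summed exon length was 25.2 and 29.6. The MCM2 to MCM7 spread of 5.42-fold was 3.82-fold in CPM, 3.23-fold per principal transcript, and 5.16-fold to 5.68-fold from single libraries. All 39 genes stayed detected under each alternative, including a minimum of 5 CPM. The binomial test called 25 members with DESeq2 size factors, where it called 40.2% of all genes. It called 24 with total counts (40.4% of all genes) and 23 without a filter (20.3% of all genes). The median log2 difference of the members was -0.09 with DESeq2 size factors and -0.10 with total counts. At the 90th percentile, a limit that more of all genes pass by construction, 3 members (POLE, RFC3 and TYMS) lay beyond the usual difference, in place of 1. Of 39 pairs, between 28 and 31 were called from single libraries. In CPM, where length is not divided out, 6 called pairs turned, with log2 ratios of -0.51 for MCM3/MCM4, -0.83 for PRIM1/POLA2, -2.01 for POLE2/POLE, -0.15 for RPA2/LIG1, -0.45 for TK1/RRM1 and 0.75 for POLA1/PRIM1. RPA2/LIG1 was then no longer called, and MCM6/MCM5 (0.23) and CDC45/GINS4 (0.059) lost the call without turning. Per principal transcript CDT1/ORC6 (-0.46) was called in the opposite direction, and MCM3/MCM4 (-0.12) and POLA1/POLE2 (-0.076) turned and lost the call. On that scale MCM6/MCM5 (0.15), CDC6/CDT1 (0.28), GINS4/GINS3 (0.15) and POLE2/POLE (0.13) lost it without turning. CDC6 is understated there, because its principal transcript is longer than its counted exons. No call changed over exon bases that no other gene covers. E2F words were found in 28 of 35 members with the most upstream start site only. The share was 36% of 50 other genes of the pathway, 11.1% of all genes and 18.3% of detected protein-coding genes. No paired analysis was possible because there is a single group. With at least 438 reads per gene, depth limits little; with 2 libraries, replicate spread is poorly known.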
